A study of Bos taurus with 14 samples.

Results

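The hepatocyte identity transcription factors are DNA-binding proteins that act together to switch on the genes a liver parenchymal cell is known for. Here they are 9 genes, HNF4A, FOXA1, FOXA2, FOXA3, CEBPA, CEBPB, ONECUT1, PROX1 and NR5A2, found by gene symbol among the 17469 genes of a liver RNA sequencing table. The study reared 14 Holstein bull calves on milk replacer and starter, weaned them by day 89 and took liver after slaughter on day 90. The control group (CON, 7 calves) had no supplement named in the labels, and the DCLI group (7 calves) received 1 g per day of a postbiotic, that is, dead bacterial cells given as a feed additive, made from Lactobacillus ingluviei CR37. The comparison between the groups asks how the supplement bears on expression in the liver. Each calf gave 1 library of poly(A)-selected RNA, so n counts calves.

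FOXA proteins are pioneer factors that open closed chromatin, and ONECUT1 (also called HNF6) and PROX1 take part in the development of the embryonic liver, as known from the mouse. In the adult, HNF4A, a nuclear receptor, and CEBPA, a basic leucine zipper protein, hold the mature programme of plasma protein, lipid and amino acid genes in place. CEBPB binds the same DNA sites as CEBPA and is known for driving acute phase genes in inflammation, and NR5A2 (liver receptor homolog 1) controls bile acid and cholesterol genes. The factors bind each other's promoters and so form a network with cross-regulation.

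Levels are in TPM (a relative transcript abundance), which corrects for how long a transcript is and for the size of the library, with transcripts summed per gene. The tissue label was checked against 10 hepatocyte markers, all of which were found in every library, with ALB (serum albumin) between 20424 and 72506 TPM. Genes with at least 1 TPM ranged from 11430 to 12358 in number per library, and read depth is unknown, because TPM values are scaled to a fixed sum. CON calf 2 stood apart in markers of T and NK cells (358 TPM in sum, against 34.8 to 115 TPM in the other control calves), and DCLI calf 6 had the highest haptoglobin mRNA (HP, 29341 TPM) and the lowest ALB of all calves. All 9 factors reached 1 TPM in all 14 libraries, so none of them entered the tests through 1 group alone. Liver pieces hold several cell types, and in such bulk samples fewer cells of a type and less RNA per cell cannot be told apart.

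HNF4A was the most abundant of the 9 factors and ONECUT1 the least. Over all 14 calves the mean of HNF4A was 129 TPM (SD 21.7), which placed it at rank 820 of the 17469 genes. CEBPB followed with 54.9 TPM (SD 13.6), FOXA3 with 37.3 TPM (SD 14.9), PROX1 with 29.5 TPM (SD 6.52) and CEBPA with 20.2 TPM (SD 8.05). FOXA2 had 14.1 TPM (SD 5.00), NR5A2 7.33 TPM (SD 1.29), FOXA1 7.26 TPM (SD 1.75) and ONECUT1 2.53 TPM (SD 0.947). HNF4A made up 43.5% of the summed TPM of the 9 genes in CON and 41.8% in DCLI. The sum ran from 243 to 336 TPM in CON and from 286 to 347 TPM in DCLI.

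Some neighbours in this order changed places from calf to calf. NR5A2 lay above FOXA1 in 6 of 14 calves and FOXA3 above PROX1 in 9 of 14, so neither pair differed in level beyond its spread. CEBPB exceeded FOXA3 in 11 of 14 calves, and CEBPA exceeded FOXA2 in 11 of 14. HNF4A exceeded CEBPB in 13 of 14 calves, the exception being DCLI calf 1. PROX1 exceeded CEBPA in 13 of 14. FOXA2 was above NR5A2, and FOXA1 above ONECUT1, in 14 of 14 calves.

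**Figure D1:**
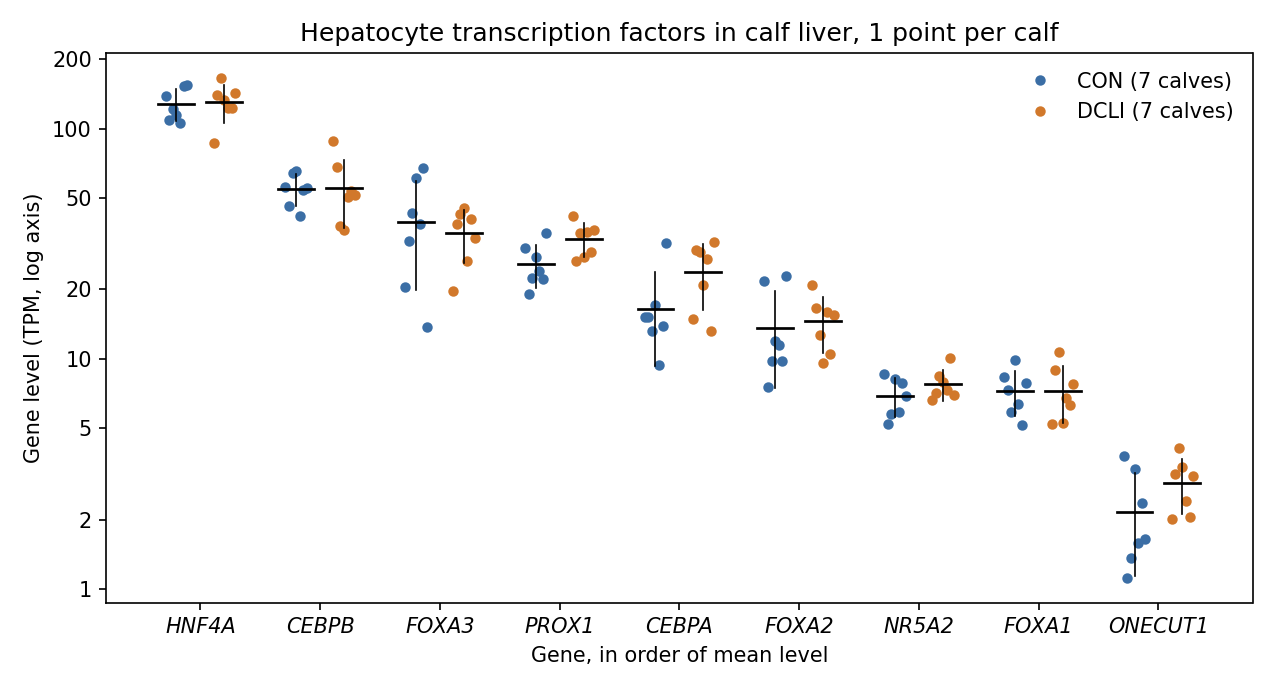
Level of each of the 9 factors (TPM, log axis) in the 14 calves, 1 point per calf, with CON in blue and DCLI in orange; long bars are group means and thin bars 1 SD (n = 7 each). The CON and DCLI points of every gene overlap, HNF4A lies highest in 13 of 14 calves, and FOXA3 spreads from 13.7 to 67.05 TPM within CON.

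The factors differed in how much they varied between calves of the same group. FOXA3, CEBPA and FOXA2 had coefficients of variation of 37.9%, 37.6% and 36.2% (mean of the 2 groups). The median of genes within 0.5 log2 units of their level was 16.8%, 17.2% and 17.7% in the same order, and the 3 factors varied more than 91.1%, 90.6% and 90.04% of those genes. For FOXA3 and FOXA2 the spread was larger in CON (SD 19.6 and 6.17 TPM) than in DCLI (SD 9.18 and 3.94 TPM). For CEBPA the SD was 7.19 TPM in CON and 7.57 TPM in DCLI. HNF4A, at 17.4%, and NR5A2, at 17.2%, lay close to their own comparison medians of 17.8% and 19.5%. CEBPB had 24.2%, FOXA1 24.9%, PROX1 18.997% and ONECUT1 36.96%, the last against 25.4% for genes of like level, which here is low.

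None of the 9 factors passed an adjusted p of 0.05 between DCLI and CON by limma, and 0% of the 11905 genes tested did. At an unadjusted p under 0.05 there were 2 of the 9 factors, PROX1 and CEBPA, both higher in DCLI. With limma's sample weights, which count unusual libraries less, both passed the adjusted threshold (CEBPA 0.87, adjusted p 0.019, and PROX1 0.45, adjusted p 0.020), as did 1388 of all genes. The unadjusted threshold without weights was met by 8.89% of all genes, and by 5.7% in the direction of higher in DCLI. Of the 9 factors 6 had a positive and 3 a negative log2 fold change, with a median of 0.15, where 48.8% of all genes were positive and their median was -0.0052. The signs of HNF4A and FOXA1 changed with quantile normalization (-0.0071 and 0.014), and those of HNF4A, FOXA1, FOXA3 and CEBPB with the calf left out. No factor had groups free of overlap, which held for 0.0672% of all genes.

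PROX1, a homeodomain protein known as a corepressor of HNF4A and NR5A2, came nearest to the threshold. Its lowest, median and highest levels were 19.2, 24.1 and 35.2 TPM in CON and 26.6, 35.3 and 41.9 TPM in DCLI. All 7 DCLI calves lay above the CON median, which 6.81% of all genes also showed, and 4 of 7 CON calves lay below the lowest DCLI calf. The means were 25.9 TPM (SD 5.49, n = 7) and 33.2 TPM (SD 5.56, n = 7), a log2 fold change of 0.36 ± 0.14 (SE) with a 95% interval from 0.07 to 0.65 (limma, unadjusted p 0.0196, adjusted p 0.479). An exact permutation test (3432 ways to assign the calves, two-sided) gave an unadjusted p of 0.0309, and 8.57% of all genes were under 0.05 in that test. PROX1 also marks lymphatic endothelium. Of that cell type's other 6 markers, PDPN was listed at 0 in 11 calves and reached 0.43 TPM at most, and MMRN1 reached 0.59 TPM. CCL21, a lymphatic chemokine, had 4.77 TPM in CON and 2.94 TPM in DCLI, and FLT4, a receptor of lymphatic growth factors, had 10.1 and 11.1 TPM. RELN (reelin) had 7.64 and 9.53 TPM and LYVE1, a hyaluronan receptor, 63.7 and 64.6 TPM. Of the 5 markers of the list that were tested, PROX1 included, 4 were higher and 1 lower in DCLI. The sum of the list, PROX1 included, was 76.7 to 138 TPM in CON and 93.98 to 144 TPM in DCLI. LYVE1, which is also on the list of sinusoidal endothelial markers, had the highest mean in this sum and PROX1 itself the next highest.

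CEBPA had the largest difference in size. Its lowest, median and highest levels were 9.36, 15.1 and 31.9 TPM in CON and 13.15, 27.1 and 32.01 TPM in DCLI. The groups overlapped over most of the range, since CON calf 7 reached 31.9 TPM where the next control calf had 17.1 TPM. The means were 16.5 TPM (SD 7.19) and 23.9 TPM (SD 7.57, n = 7 each), a log2 fold change of 0.52 ± 0.24 (SE) with an interval from 0.01 to 1.03 (limma, unadjusted p 0.0459, adjusted p 0.553). The exact permutation p was 0.0822. CEBPA and CEBPB dimerise with each other, and the ratio of CEBPB to CEBPA within a library, which no library scaling can change, ran from 1.74 to 4.89 in CON (median 3.81) and from 1.297 to 5.93 in DCLI (median 1.86). CEBPB itself had 41.8, 55.4 and 65.1 TPM as lowest, median and highest in CON and 36.4, 51.6 and 88.5 TPM in DCLI, a log2 fold change of -0.03 ± 0.17 with an interval from -0.40 to 0.34 (limma, adjusted p 0.971). The highest value was that of DCLI calf 1.

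ONECUT1 and NR5A2 had positive log2 fold changes whose intervals include 0. ONECUT1 had 1.12, 1.65 and 3.78 TPM as lowest, median and highest in CON and 2.01, 3.10 and 4.09 TPM in DCLI. All 7 DCLI calves lay above the CON median, which 6.81% of all genes also showed, yet the 2 highest control calves lay above the DCLI median. Its log2 fold change was 0.33 ± 0.19 (SE, interval -0.07 to 0.73, limma, adjusted p 0.615). NR5A2 had 5.19, 6.88 and 8.55 TPM in CON and 6.60, 7.32 and 10.08 TPM in DCLI in the same order, a log2 fold change of 0.16 ± 0.12 (interval -0.10 to 0.41, limma, adjusted p 0.710).

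For HNF4A and the pioneer factors the difference between the group means was smaller than the SD within either group. HNF4A had 106, 121 and 155 TPM as lowest, median and highest in CON and 86.7, 133 and 166 TPM in DCLI, with means of 128 TPM (SD 20.7) and 130.3 TPM (SD 24.2). Its log2 fold change was 0.02 ± 0.14, with an interval from -0.27 to 0.31 (limma, adjusted p 0.981), which is a fold between 0.827 and 1.24. FOXA1 had 5.17, 7.29 and 9.89 TPM in CON and 5.22, 6.75 and 10.7 TPM in DCLI, a log2 fold change of -0.0061 ± 0.16 (interval -0.34 to 0.33). FOXA2 had 7.57, 11.5 and 22.96 TPM in CON and 9.60, 15.5 and 20.9 TPM in DCLI, a log2 fold change of 0.15 ± 0.23 (interval -0.34 to 0.64). FOXA3 had 13.7, 38.6 and 67.05 TPM in CON and 19.7, 38.4 and 45.1 TPM in DCLI, with means of 39.4 TPM (SD 19.6) and 35.2 TPM (SD 9.18) and a log2 fold change of -0.04 ± 0.30 (interval -0.68 to 0.60). The adjusted p of the 3 FOXA genes lay between 0.867 and 0.995 by limma, and their groups overlapped over most of the range. The intervals of FOXA2 and FOXA3 still include a 1.5-fold difference.

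**Figure D2:**
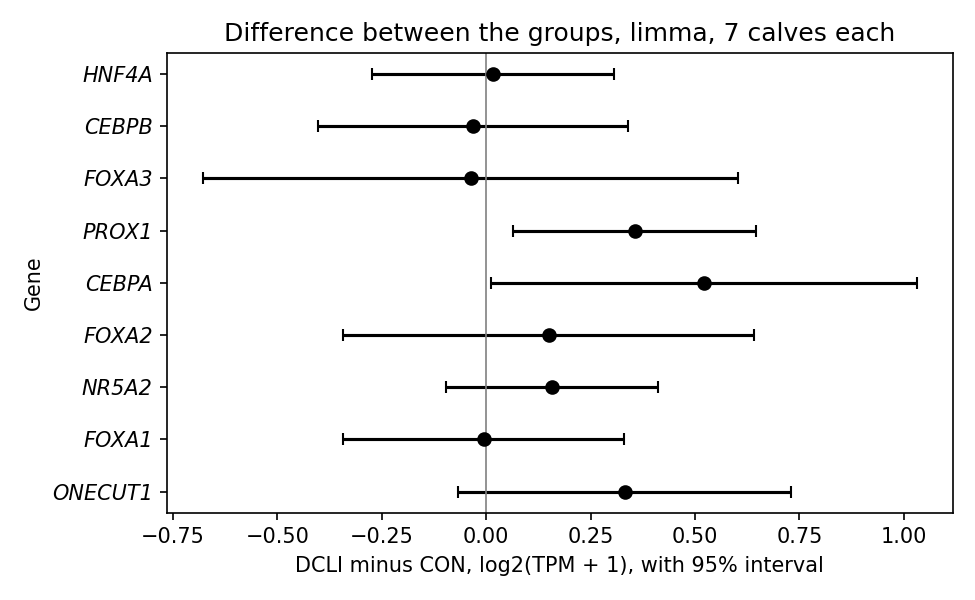
Difference between the groups for each factor (DCLI minus CON on the log2(TPM + 1) scale), with points as limma estimates and bars as 95% intervals (n = 7 each), in order of mean level. The intervals of PROX1 (0.07 to 0.65) and CEBPA (0.01 to 1.03) lie to the right of 0, before adjustment, and the other 7 include 0.

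Among themselves the factors did not move as 1 block from calf to calf. Of the 36 pairs, 2 correlated with an adjusted p under 0.05 by Pearson's r (permutation test, 100000 resamples, two-sided), and 6 did before adjustment. FOXA2 and FOXA3, close relatives with nearly the same DNA-binding domain, ran against each other. Pearson's r was -0.76 (n = 14 calves, permutation p 0.00156, adjusted p 0.0364) and Spearman's rho was -0.71 (permutation p 0.00657, adjusted p 0.0788). The sign was the same in each group, with r of -0.75 within CON and -0.84 within DCLI, and r was -0.58 without CON calves 1 and 7, the 2 farthest from the FOXA2 median. Of the other genes, 1.04% had an r with FOXA2 at least this far from 0. In CON calf 1, CON calf 7 and DCLI calf 1 the ratio of FOXA3 to FOXA2 was 0.939, 0.596 and 0.941, so FOXA2 was the higher of the pair. In the other 11 calves the ratio lay between 1.66 and 6.88.

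FOXA2 and PROX1 ordered the calves alike, with r of 0.76 (permutation p 0.00202, adjusted p 0.0364) and rho of 0.71 (permutation p 0.00615, adjusted p 0.0788). The r was 0.95 within CON, 0.63 within DCLI and 0.83 without the same 2 control calves, and 0.974% of the other genes had an r with FOXA2 at least as large in size. After median-ratio scaling of the libraries neither pair met the threshold (permutation test, adjusted p 0.254 and 0.0749, r -0.64 and 0.76). With 1 calf left out, the adjusted p for FOXA2 with FOXA3 ran from 0.00252 to 0.111 and was above 0.05 without any of CON calves 1, 3, 5, 6 and 7 and DCLI calves 1 and 5. That for FOXA2 with PROX1 ran from 0.0227 to 0.155 and was above 0.05 without any of CON calves 2 to 7 and DCLI calves 1 and 5. ONECUT1 and NR5A2 had an r of 0.69 (permutation p 0.00671, adjusted p 0.0805) and a rho of 0.79 (permutation p 0.00127, adjusted p 0.0457). The r was 0.95 within CON, -0.02 within DCLI and 0.54 without CON calf 2 and DCLI calf 3, and 1.07% of the other genes had an r with ONECUT1 at least as large in size. DCLI calf 6 had the highest NR5A2 at a low ONECUT1, and r over the other 13 calves was 0.90. The difference between the groups in this relation was not tested. HNF4A and CEBPA had an r of 0.58 (permutation p 0.0268, adjusted p 0.241) and a rho of 0.65 (permutation p 0.0143, adjusted p 0.129), with r of 0.60 within CON, 0.71 within DCLI and 0.58 without DCLI calves 1 and 3. An r of that size with CEBPA was found for 15.5% of all other genes. No relation was found between CEBPA and CEBPB (r = -0.10, permutation p 0.744, rho = -0.04, permutation p 0.887).

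**Figure D3:**
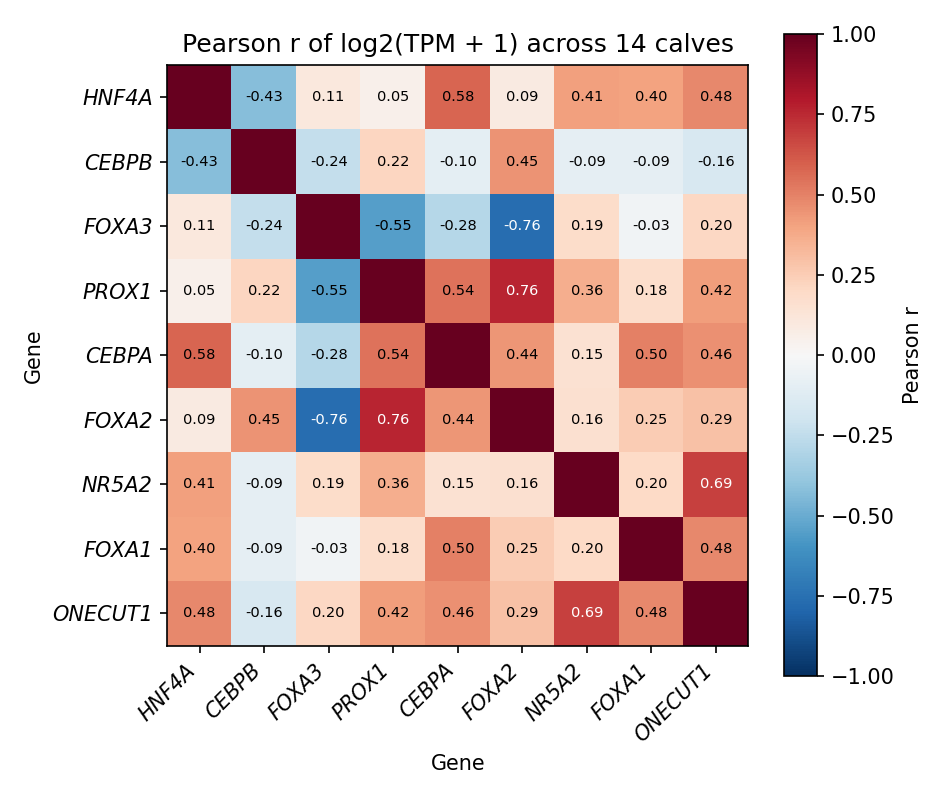
Pearson's r of log2(TPM + 1) across the 14 calves for the 36 pairs of factors, red for positive and blue for negative, genes in order of mean level on both axes. The strongest cells are FOXA2 with PROX1 (0.76), FOXA2 with FOXA3 (-0.76) and ONECUT1 with NR5A2 (0.69).

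**Figure D4:**
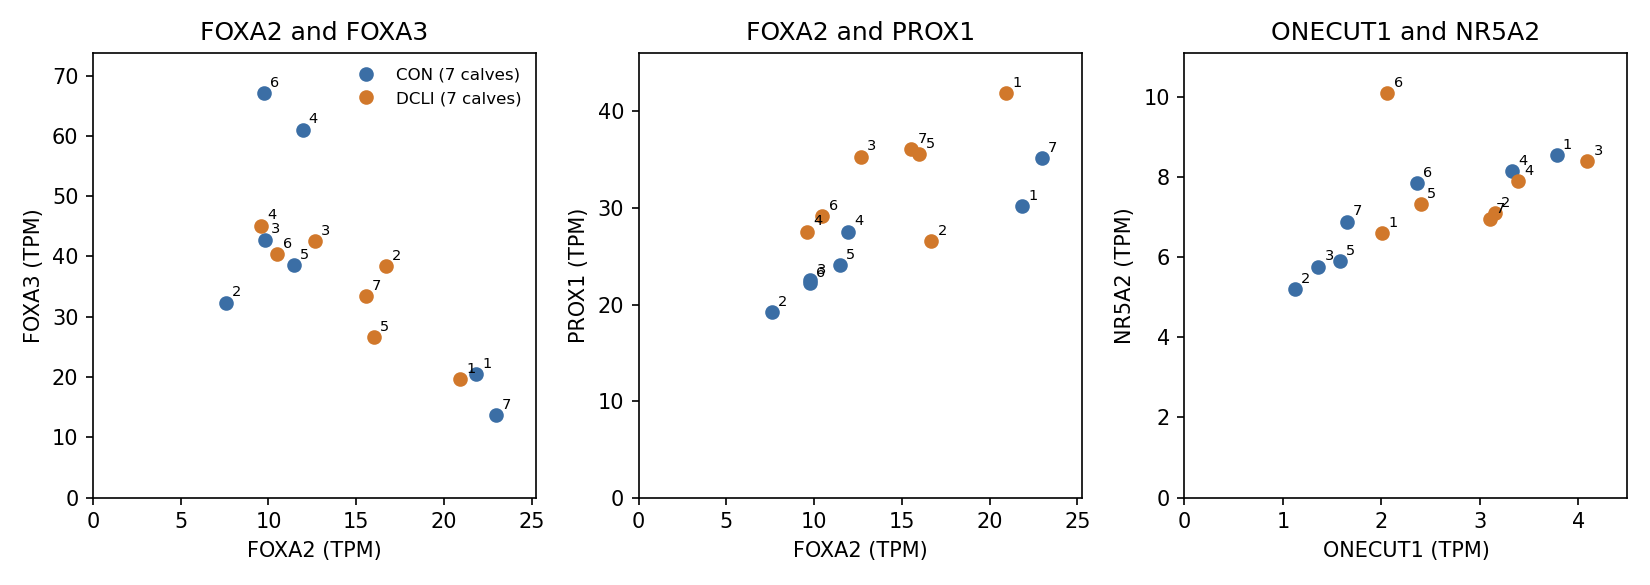
Levels (TPM, linear axes from 0) of 3 pairs of factors in each calf, CON in blue and DCLI in orange, numbered by calf within its group. CON calves 1 and 7 and DCLI calf 1 combine high FOXA2 with low FOXA3, and DCLI calf 6 stands above the other calves in NR5A2 (10.08 TPM).

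The factors were then set beside haptoglobin mRNA and the markers of 4 cell types. HP, a major acute phase gene of cattle and a target of the CEBP family, ran from 46.6 to 29341 TPM. No relation to it was found for CEBPB (r = -0.01, permutation p 0.962, rho = -0.11, permutation p 0.704, n = 14), and DCLI calf 6, with the highest HP, had 53.7 TPM of CEBPB, between the values of the other calves. CEBPA was lower where HP was higher (r = -0.58, permutation p 0.0315, adjusted p 0.158, rho = -0.58, permutation p 0.0338), with r of -0.45 within CON, -0.85 within DCLI and -0.48 without CON calf 7 and DCLI calf 7. FOXA2 was also lower where HP was higher (r = -0.65, permutation p 0.013, adjusted p 0.158, rho = -0.65, permutation p 0.0132), with r of -0.79 within CON, -0.46 within DCLI and -0.46 without CON calves 1 and 7. FOXA3 lay on the other side (r = 0.59, permutation p 0.027, adjusted p 0.158, rho = 0.65, permutation p 0.0148), with r of 0.82 within CON, 0.17 within DCLI and 0.77 without CON calf 7 and DCLI calf 1. CEBPA went with the mean of the hepatocyte markers (r = 0.66, permutation p 0.00931, adjusted p 0.158, rho = 0.65, permutation p 0.0132), at 0.61 within CON, 0.75 within DCLI and 0.56 without CON calf 7 and DCLI calf 7. It ran against the mean of the bile duct markers (r = -0.66, permutation p 0.0103, adjusted p 0.158, rho = -0.59, permutation p 0.0296), at -0.88 within CON, -0.13 within DCLI and -0.56 without the same 2 calves. FOXA2 also went with the hepatocyte markers (r = 0.61, permutation p 0.0207, adjusted p 0.158, rho = 0.67), at 0.72 within CON, 0.52 within DCLI and 0.52 without CON calves 1 and 7. All hepatocyte markers but CYP2E1 are also among the classical hepatocyte targets listed further below. The marker list is therefore not a readout of cell content separate from those targets. FOXA3 went with the bile duct markers (r = 0.59, permutation p 0.0255, adjusted p 0.158, rho = 0.58), at 0.56 within CON and 0.84 within DCLI, but 0.19 without CON calf 7 and DCLI calf 1. Of the 45 relations computed, 10 had an unadjusted p under 0.05 by r, and 0 an adjusted p under 0.05 by r or by rho. HNF4A with the hepatocyte markers was under 0.05 before adjustment by rho only (rho = 0.61, permutation p 0.0220, r = 0.47, permutation p 0.0866). Its r was 0.92 within CON, 0.19 within DCLI and 0.69 without DCLI calves 1 and 3. The share of all genes that relate as strongly to HP or to these markers was not computed. The relations under 0.05 before adjustment can therefore not be read as particular to the factors.

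The marker lists are given by their counts and sums, with no test of a list, and the sums of all of them overlapped between the groups. Their part in the values of PROX1 and CEBPA was not tested. PROX1, like CEBPA, FOXA2 and FOXA3, had relations with them before adjustment. Its r with the bile duct markers was -0.58 (permutation p 0.0297, adjusted p 0.158, rho = -0.56, permutation p 0.0413), at -0.34 within CON, -0.75 within DCLI and -0.67 without CON calf 2 and DCLI calf 1. With the T and NK cell markers it was -0.57 (permutation p 0.0292, adjusted p 0.158, rho = -0.34, permutation p 0.240), at -0.36 within CON and -0.80 within DCLI, but -0.09 without the same 2 calves, so it rests on them. With the hepatocyte markers it was 0.54 (permutation p 0.047, adjusted p 0.211, rho = 0.66, permutation p 0.0128), at 0.66 within CON, 0.50 within DCLI and 0.46 without those calves. Of the bile duct markers that passed the filter, 1 was higher and 5 lower in DCLI, with a summed level of 16.0 to 96.9 TPM in CON and 21.3 to 58.6 TPM in DCLI, and CLDN4, a tight junction protein, the most abundant. All 9 markers of T and NK cells, led by CD3E, were lower in DCLI (34.8 to 358 TPM in CON, 26.8 to 105 TPM in DCLI). Of the 11 macrophage markers, led by C1QA of complement, 10 were lower (1934 to 8456 TPM against 1707 to 5121 TPM). Without CON calf 2 the log2 fold change was 0.29 for PROX1 and 0.51 for CEBPA, and without CON calf 2 and DCLI calf 6 together it was 0.32 and 0.64. Of the tested stellate cell markers, led by DCN, a matrix proteoglycan, 2 were higher and 7 lower in DCLI. Of the sinusoidal endothelial markers, led by CLEC4G, 2 were higher and 4 lower, and of the neutrophil markers, led by S100A12, 0 were higher and 5 lower. LYVE1 was the highest of the lymphatic list. Markers of pancreas and intestine, where several of these factors are also active, summed to 2.98 to 19.7 TPM, with VIL1 the highest.

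Of the 9 genes, 6 are listed with 1 transcript each, FOXA3 with 2, PROX1 with 5 and NR5A2 with 8. The split of reads between transcripts of 1 gene is an estimate, since they share most of their sequence. No transcript of the factors passed the adjusted threshold, and the lowest p belonged to a transcript of NR5A2. This variant, XM_024976440, had 1.70, 2.63 and 4.17 TPM as lowest, median and highest in CON and 0, 0.99 and 2.69 TPM in DCLI, and was listed at 0 in 2 DCLI calves. In 6 of 7 DCLI calves it lay below the lowest control calf, DCLI calf 6 being the exception. How common this was among all transcripts was not counted. The log2 fold change was -1.15 ± 0.28 (SE, limma over 19045 transcripts, unadjusted p 0.000808, adjusted p 0.212). It held 43.9% of the TPM of NR5A2 in CON (25.8% to 72.4%) and 11.05% in DCLI (0% to 26.7%).

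A second NR5A2 variant, XM_005217386, lay the other way, at 0, 2.20 and 3.87 TPM in CON and 1.28, 4.46 and 6.08 TPM in DCLI. It was listed at 0 in 2 control calves, and its log2 fold change was 0.95 ± 0.37 (limma, unadjusted p 0.0220, adjusted p 0.369). Its share of NR5A2 was 28.2% among control calves (SD 23.5) against 52.0% among DCLI calves (SD 20.9, 7 calves each, exact permutation p 0.0705, two-sided, adjusted p 0.449). Another variant, XM_005217382, held 19.4% and 31.5%. Of all member transcripts, 0 passed an adjusted p of 0.05, as did 0% of all transcripts, and 11.1% of all transcripts had an unadjusted p under 0.05.

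The share of the main transcript, a measure that library scaling cannot change, did not pass the adjusted threshold for FOXA3 or PROX1. In FOXA3 the main transcript, NM_001033119, took 86.3% to 91.9% in CON (mean 89.5%, SD 2.06) and 90.6% to 94.1% in DCLI (mean 93.0%, SD 1.17), and 6 of 7 DCLI calves lay above every control calf. The difference of 3.49 percentage points had an exact permutation p of 0.0035, adjusted p 0.241 over 8038 genes. These had at least 2 transcripts, passed the filter, were above 0 in every library and had a share that varied. In PROX1 the main transcript, XM_005217353, took 92.3% to 95.9% in CON (mean 94.3%, SD 1.46) and 88.8% to 94.2% in DCLI (mean 91.2%, SD 1.77), with 6 of 7 DCLI calves below every control calf (exact permutation p 0.00641, adjusted p 0.241). The PROX1 variant XM_024976208 had 0.36, 0.79 and 1.61 TPM as lowest, median and highest in CON and 1.24, 1.54 and 3.03 TPM in DCLI (log2 fold change 0.60 ± 0.18, limma, unadjusted p 0.00498, adjusted p 0.270). Of all 8038 genes, 12.2% had an unadjusted exact p under 0.05 for the share of their main transcript and 0% an adjusted one. How many of these genes had 6 of 7 DCLI calves beyond every control calf was not counted.

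**Figure D5:**
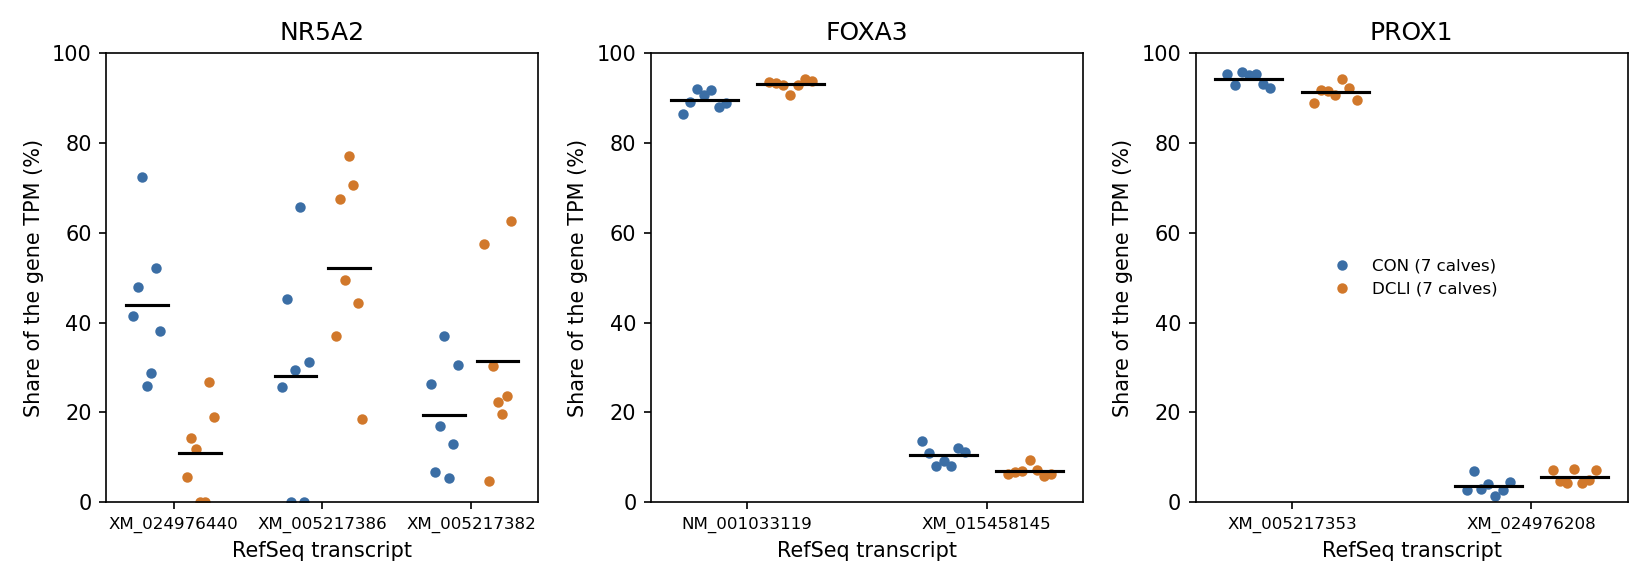
Share of each gene's TPM (%) in the transcripts of NR5A2, FOXA3 and PROX1 that the text describes, 1 point per calf, CON in blue, DCLI in orange, bars at the group mean (n = 7 each). The NR5A2 variant XM_024976440 lies at 25.8% to 72.4% in CON and at 0% to 26.7% in DCLI, while the mean share of the main transcript is 89.5% and 93.0% for FOXA3 and 94.3% and 91.2% for PROX1.

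Other transcription factors and nuclear receptors of the hepatocyte also held no gene past the adjusted threshold. Of 37 tested, 27 were higher and 10 lower in DCLI (median log2 fold change 0.10, but 0.06 without CON calf 2, 0.16 without CON calf 7, 0.15 without DCLI calf 6 and 0.25 with sample weights), and 9 were higher at an unadjusted p under 0.05. Of all genes tested, 48.8% were higher in DCLI, and 5.7% were higher at an unadjusted p under 0.05 (limma). This list and those below were chosen with earlier results of these data known. Within the list, the lowest p belonged to NR1I2, the pregnane X receptor (mean 49.8 TPM, SD 13.1, among controls against 73.9 TPM, SD 15.1). CREB3L3, a membrane-bound factor that governs fasting and acute phase genes, had 126 TPM (SD 63.5) and 249 TPM (SD 103), a log2 fold change of 0.99 ± 0.32 (limma, adjusted p 0.420). HNF4G, the close relative of HNF4A, had 12.6 TPM (SD 3.38) and 16.8 TPM (SD 2.82), a log2 fold change of 0.41 ± 0.15 (adjusted p 0.472 by limma) beside 0.02 for HNF4A. NR2F6, an orphan nuclear receptor, had 35.4 and 44.2 TPM.

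Genes that these factors are known to drive held no called gene either. Of 42 classical hepatocyte targets tested, 28 were higher and 14 lower (median 0.09, but 0.05 without CON calf 5, 0.15 without CON calf 7, 0.22 without DCLI calf 6 and 0.23 with sample weights), and 4 were higher at an unadjusted p under 0.05. The shares over all genes tested were 48.8% higher, and 5.7% higher at an unadjusted p under 0.05 (limma). PCK2, a mitochondrial enzyme of gluconeogenesis, had 155 and 229.9 TPM, and CPS1, which makes carbamoyl phosphate for urea synthesis, had 568 and 757 TPM. ABCG5 and ABCG8, which form the sterol exporter of bile and are known targets of NR5A2, had 3.59 and 6.12 TPM and 4.95 and 10.4 TPM (log2 fold changes of 0.58 ± 0.22 and 0.88 ± 0.30, limma, adjusted p 0.458 and 0.439). Of 15 acute phase genes linked to CEBPB, 10 were higher and 5 lower (median 0.11, but negative without CON calf 1 at -0.08, DCLI calf 1 at -0.05 or DCLI calf 4 at -0.04, 0.04 to 0.05 without CON calf 3, CON calf 7 or DCLI calf 6, and 0.16 to 0.19 without CON calf 4 or DCLI calves 3, 5 or 7). The lowest p of that list, not the highest level, belonged to IL6R, the interleukin 6 receptor (16.1 and 23.6 TPM). ORM1, an acute phase glycoprotein, had 24865 TPM (SD 6967) and 20130 TPM (SD 22867), the latter with 71549 TPM in DCLI calf 6 and at most 14705 TPM in the others. Of the DCLI calves 6 of 7 lay below the CON median of ORM1 (log2 fold change -0.73 ± 0.41, limma, adjusted p 0.615). How common such a count was among all genes was not counted. CRP and CP (ceruloplasmin) had 578 and 691 TPM and 499.6 and 609.95 TPM.

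Genes of fetal and immature liver were 2 higher and 5 lower of 7 tested (median -0.14, but -0.26 without CON calf 7, -0.08 without CON calf 1 or CON calf 5, -0.06 without DCLI calf 1 and 0.04 over only those whose mean reached 5 TPM), and AFP and SOX9 were among the 5 that stayed under the filter. IGF2, a fetal growth factor that stays active in ruminant liver, averaged 528 TPM among control calves (SD 88.6) and 405 TPM among DCLI calves (SD 106), with a log2 fold change of -0.41 ± 0.17 (limma, adjusted p 0.509). All 7 DCLI calves lay below its CON median, and the share of all genes with that pattern was not counted. EPCAM, SOX4 and IGF2BP3 had 9.77 and 11.7 TPM, 1.37 and 1.12 TPM, and 2.90 and 2.48 TPM.

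The genes whose levels ordered the 14 calves most like each factor were found by Spearman's rho over the 11905 genes, as a description. The factors themselves and genes with a placeholder (LOC) symbol or none were passed over. Each rho pools the 2 groups. Pearson's r within a group ran from 0.29 (CTNNA3 with NR5A2, DCLI) to 0.99 (PGAP3 with CEBPA, DCLI). Like HNF4A were NAT1 (rho 0.91), KIAA1191 (0.86) and PCSK6 (0.86). Like FOXA1 were NDST2 (0.91), C23H6orf62 (0.90) and PDRG1 (0.86), and like FOXA2 were SSBP2 (0.93) and PDGFRB (0.92). FOXA3 had ATP5MF, PDIA6 and GPC3, each at a rho of 0.93. GPC3 encodes glypican 3, a surface proteoglycan of fetal liver, and ran from 131 to 1127 TPM. CEBPA had PGAP3 (0.99) and RNF26 (0.94), while CEBPB had OLFML1 (0.93), then CEBPD, its own relative in acute phase control (0.79), and CROT (0.78). ONECUT1 had MKL2 (0.93), CTNNA3 (0.92) and POSTN (0.91), PROX1 had SH3BGRL2 (0.95), LDAH (0.93) and MYO18A (0.93), and NR5A2 had ABCC9 (0.95), STRBP (0.89) and CTNNA3 (0.85).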

How the data were processed

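RNA from the liver of 14 calves (1 library each, 7 per group) was read on the DNBSEQ platform, per the labels' protocols. SOAPnuke 1.5.6, RSEM 1.3.1 and DESeq2 1.4.5 are named in the submitters' processing notes. Aligner and genome build: not given in the sources used here. What the authors deposited is TPM for 49721 RefSeq transcripts, whose total is the same in every library, so depth is unknown. Libraries titled as treated were taken as DCLI.

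TPM was summed per gene. A gene was tested if 7 or more libraries reached 1 TPM, and log2(TPM + 1) was compared with limma 3.58.1 in R 4.3.3 (eBayes with trend, Benjamini-Hochberg over all genes tested, threshold 0.05). Fold changes on this scale understate those of low genes. The fit was tested on simulated data with noise drawn separately for each gene and with set changes larger than the main estimates for the factors. That test did not cover variation that genes share between calves, or changes as small as those of the factors. Shares of the main transcript were to be adjusted over the factors alone and were adjusted over all 8038 genes instead. Correlations used 100000 permutations and were adjusted over 36 pairs or 45 relations. Named were all factors, up to 4 genes of lowest p per list, the highest gene per marker list and 3 genes most like each factor, of which 2 are not reported here. Alternatives changed the pseudocount (0.1 or 5), filter, scaling, weights, trend, block, test and calves included. The factors and lists were chosen with earlier results of these data known. Of the list entries, G6PC1, H19, LIN28B, CLEC4M, CSF3R, CPA1 and PDX1 had no match by symbol.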

Additional observations from a re-analysis of the deposited data

Results flagged for a closer look

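Of 74 groups of 7 calves tested, 9 held 1 calf far from the others by Dixon's criterion, where chance gives about 1 in 20 for normally distributed values. The TPM values were not log-transformed and the groups share calves, so that rate need not hold here. Among the factors, CEBPA was 31.9 TPM in CON calf 7, with 17.1 TPM in the next control calf. The main transcript of FOXA3 took 90.6% in DCLI calf 4, and 92.8% in the next lowest DCLI calf. Summed T and NK cell markers were 358 TPM in CON calf 2, with 115 TPM next, and summed neutrophil markers 255 TPM in DCLI calf 6, with 107 TPM next. CREB3L3 was 255 TPM in CON calf 7 against 140.2 TPM next. In DCLI calf 6, PCK2 was 154 TPM against 219.7 TPM in the next lowest calf, and ORM1 was 71549 TPM against 14705 TPM in the next highest. In DCLI calf 4, CPS1 was 1207 TPM against 714 TPM next, and EPCAM was 23.7 TPM against 11.6 TPM next.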

How the results depend on the processing

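With 1 calf left out, the count of all genes past the threshold ran from 0 to 12, that of all transcripts from 0 to 73, and that of member genes, member transcripts and member shares was 0. CON calf 7 gave the counts of 12 and 73. The replicate number as a block gave 1 gene and 1 transcript, and 0 factors. The numbers are not known to pair the calves, since the correlation of deviations ran from -0.18 to 0.45 and was above 0.1 in 4 of 7 numbers, and 2 of 7 numbers matched best with each other. Sample weights called 1388 genes and 2 transcripts, and 2 factors, CEBPA at 0.87 (adjusted p 0.019) and PROX1 at 0.45 (adjusted p 0.020), by limma. Without CON calf 2 and DCLI calf 6 together 3 transcripts were called. Of the factors, HNF4A changed sign with quantile normalization (-0.0071) and without those 2 calves (-0.0095), and FOXA1 with quantile normalization (0.014), after the 20 most abundant genes were taken out of the totals (0.0092), with sample weights (0.15) and without those 2 calves (0.023). Leaving out 1 calf gave log2 fold changes of -0.045 to 0.11 for HNF4A, -0.095 to 0.065 for FOXA1, -0.25 to 0.12 for FOXA3 and -0.15 to 0.058 for CEBPB. The other 5 were positive throughout, from 0.29 to 0.43 for PROX1, 0.41 to 0.69 for CEBPA, 0.25 to 0.44 for ONECUT1, 0.10 to 0.21 for NR5A2 and 0.04 to 0.29 for FOXA2. NR5A2 was 0.04 without CON calf 2 and DCLI calf 6. ONECUT1 was 0.48 with a pseudocount of 0.1 and 0.14 with 5, and was not tested at a mean of at least 5 TPM. The count of correlated pairs, 2 of 36, ran from 0 to 3 with 1 calf left out. It was 0 with median-ratio scaling and with rescaling without the 20 most abundant genes, and 1 with quantile normalization and with Spearman's rho. The r of FOXA2 with FOXA3 ran from -0.89 to -0.63 and that with PROX1 from 0.69 to 0.84 over all settings. The count of relations with markers was 2 with median-ratio scaling, 1 with quantile normalization and 0 to 2 with 1 calf left out. The cause of these differences was not tested. The median of acute phase genes was -0.29 with sample weights.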
